A study of Homo sapiens with 12 samples.

Results

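The genes described here are angiotensinogen (AGT) and 7 genes whose products cut, bind or process the peptides made from it or sit beside them in the proximal tubule: the peptidases ACE, ANPEP, ENPEP, MME and DPP4, the prorenin receptor ATP6AP2 and the AGTR1-associated protein AGTRAP. They are 8 of the 57527 genes to which a transcript of the deposited table could be assigned, and they were chosen with their values in these libraries known. Their differences between doses are therefore descriptions and carry no test. The cells were HK-2, an immortalised line from the proximal tubule of an adult human kidney, and 2,8-dihydroxyadenine (DHA) is a purine of low solubility whose crystals damage the kidney in people who lack the enzyme adenine phosphoribosyltransferase. After 72 h with DHA in the medium, 9 libraries were made, 3 each at 60, 120 and 240 ug/ml, and 3 control libraries came from cells given medium without it. The series title names epithelial integrity and kidney cell phenotype as its subject. All 12 libraries share 1 cell line and 1 time, and no source used here names a carrier for DHA or a control with one. Nor does any say whether the 3 libraries of a dose are separate cultures, so every SD and p-value measures only how far these libraries differ, which may be technical.

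Angiotensinogen is a secreted protein whose first residues are released as angiotensin I, which ACE shortens to angiotensin II. Proximal tubule cells make angiotensinogen themselves and carry peptidases on their apical brush border that trim angiotensins further: ENPEP removes the first aspartate of angiotensin II, ANPEP removes the next arginine, and MME (neprilysin) cuts angiotensin I inside the chain. DPP4 removes dipeptides from many peptides and is, like the other peptidases, a marker of the brush border. ATP6AP2 is known as the prorenin receptor and is also an accessory part of the proton pump of vesicles (V-ATPase), and AGTRAP binds the angiotensin II receptor AGTR1 and favours its removal from the cell surface.

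The stretch of AGT that encodes angiotensin I, the peptide that ACE and MME cut, is shown. It lies in exon 2 of 5 of the GENCODE release 29 transcript AGT-201 on GRCh38, at chr1:230710707-230710766 on the minus strand, and the capitals mark the 30 bases that encode residues 34 to 43 of the 485-residue precursor.
AGT coding sequence: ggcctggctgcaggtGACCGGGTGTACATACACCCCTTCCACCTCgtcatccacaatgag

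The promoters of 4 of the genes are shown next as examples. All 4 genes lay below control in the deposited values at 120 and 240 ug/ml (AGTRAP above it with equal library totals, as given with its values). DPP4 also lay below control at both doses and its promoter holds CACGTG, as that of AGTRAP does, but it is not shown. Each holds 250 bases before and 50 after a RefSeq gene start on GRCh38.p14, 5′ to 3′ on the strand of the gene. Capitals mark TATAA in AGT and ENPEP on either strand (in ENPEP once as TTATA, its reverse complement, and once as TTATAA, where both overlap), CCAAT (here as ATTGG, its reverse complement) in ATP6AP2, and CACGTG in AGTRAP. They were taken from chr1:230714073-230714372 (minus strand) for AGT, chr4:110475905-110476204 (plus strand) for ENPEP, chrX:40580720-40581019 (plus strand) for ATP6AP2 and chr1:11735886-11736185 (plus strand) for AGTRAP.
AGT promoter: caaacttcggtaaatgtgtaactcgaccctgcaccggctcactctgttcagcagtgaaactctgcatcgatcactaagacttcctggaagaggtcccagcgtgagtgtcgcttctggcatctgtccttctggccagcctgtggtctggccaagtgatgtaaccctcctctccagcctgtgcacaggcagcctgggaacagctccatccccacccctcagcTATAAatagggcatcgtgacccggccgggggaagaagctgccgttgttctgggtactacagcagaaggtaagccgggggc
ENPEP promoter: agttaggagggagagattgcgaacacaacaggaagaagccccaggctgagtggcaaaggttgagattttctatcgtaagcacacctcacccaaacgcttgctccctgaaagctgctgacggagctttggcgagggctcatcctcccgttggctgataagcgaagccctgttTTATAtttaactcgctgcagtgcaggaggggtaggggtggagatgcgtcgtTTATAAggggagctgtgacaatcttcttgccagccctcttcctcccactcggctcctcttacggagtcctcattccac
ATP6AP2 promoter: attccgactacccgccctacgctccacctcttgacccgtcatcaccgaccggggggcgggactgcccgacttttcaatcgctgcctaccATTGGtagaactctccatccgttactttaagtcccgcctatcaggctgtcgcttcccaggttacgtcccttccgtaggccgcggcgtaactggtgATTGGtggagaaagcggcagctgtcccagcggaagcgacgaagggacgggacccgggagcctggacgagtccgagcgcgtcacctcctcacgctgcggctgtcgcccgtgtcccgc
AGTRAP promoter: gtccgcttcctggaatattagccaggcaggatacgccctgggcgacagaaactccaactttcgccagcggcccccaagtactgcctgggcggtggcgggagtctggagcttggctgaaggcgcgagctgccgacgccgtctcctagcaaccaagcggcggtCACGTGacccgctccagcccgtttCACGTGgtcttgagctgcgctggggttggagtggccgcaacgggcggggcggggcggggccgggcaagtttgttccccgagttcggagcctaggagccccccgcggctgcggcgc
The letters TATAA stood 30 bases before the AGT start. In ENPEP they were found at 79, 28 and 27 bases before the start, the last 2 being overlapping matches on opposite strands. CCAAT was found at 161 and 66 bases before the ATP6AP2 start, and CACGTG at 89 and 65 bases before the AGTRAP start. The ENPEP span in GENCODE, given with its values, begins upstream of this RefSeq start. All 8 genes matched the RefSeq table, with 13 promoters between them. Searched on both strands, TATAA was in 4 of the 13 promoters against 20.4% of 35116 promoters of the same length in the table, CCAAT in 3 against 34.6%, CACGTG in 2 against 7.26% and TGANTCA in 0 against 7.71%. No match of a motif overlapped one of another motif in the 13 promoters. A match describes letters only, and no binding data were analysed here.

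The values are a normalised signal that the authors deposited per transcript, read here as close to TPM, a measure of abundance scaled by transcript length and library, from the library totals. No source used here names the unit. Transcripts were summed per gene, and a mean is given ± SD over the 3 libraries of a dose. Those totals were 1143850 to 1228979 in control, 984048 to 1060084 with DHA at 60 ug/ml, 875886 to 962259 with 120 ug/ml and 791808 to 969479 with 240 ug/ml, and the read depth is unknown. A log2 fold change compares log2(value + 1) between groups and understates differences of low values. With every library rescaled to the same total, the median over all genes tested moved to 0.14, 0.27 and 0.33 on the log2 scale at 60, 120 and 240 ug/ml against control, so this rescaling lifts every gene of a DHA library relative to control, and its values are given where they turn a direction. A gene counted as measured when it reached 1 in at least 3 libraries, which 7 of the 8 genes and 16789 genes in all did, and ANPEP did not.

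AGT, the substrate of the whole pathway (ENSG00000135744.7, chr1:230702523-230714297, minus strand, GENCODE release 29 on GRCh38, as for all genes here), was the gene of the 8 that stood farthest below control at 120 and 240 ug/ml. At 60 ug/ml ENPEP and MME stood farther below it. Its levels were 15.5, 19.1 and 14.5 in the control libraries, 9.3, 11.1 and 5.0 with DHA at 60 ug/ml, 2.6, 2.3 and 1.8 with 120 ug/ml and 2.3, 2.5 and 2.3 with 240 ug/ml. Every DHA library lay below every control library, and every library at 120 and 240 ug/ml lay below every library at 60 ug/ml. The mean at 240 ug/ml was 2.37 ± 0.116, against 16.4 ± 2.42 in control, or 14.5% of control. The log2 fold changes against control were -0.93, -2.42 and -2.36 at 60, 120 and 240 ug/ml (SE 0.22 each). The step from 60 to 120 ug/ml was -1.50 on the log2 scale and that from 120 to 240 ug/ml was 0.07, so the level was lowest at 120 ug/ml and no lower at 240 ug/ml. In RNA from whole cultures, fewer cells that make a transcript and less of it per cell cannot be told apart.

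**Figure D1:**
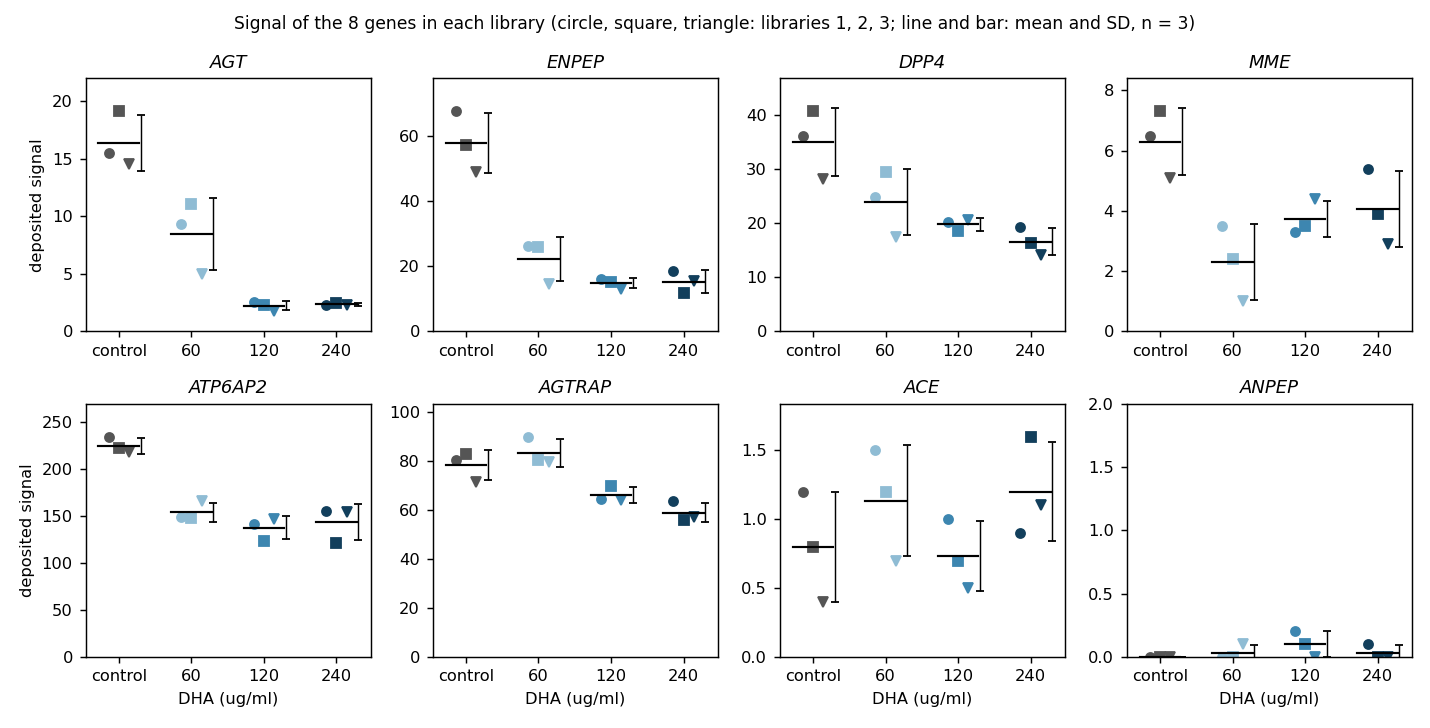
Level of each of the 8 genes (deposited signal summed per gene, linear axis, one panel per gene) against DHA dose (ug/ml, control at the left) in the 12 libraries. Points are libraries and bars are the mean ± SD of 3 libraries. AGT and ENPEP are lowest at 120 and 240 ug/ml, ATP6AP2 is below control at every dose, and ACE and ANPEP are at or near 0 throughout.

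ENPEP (aminopeptidase A, ENSG00000138792.9, chr4:110365733-110565285, plus strand), which removes the N-terminal aspartate of angiotensin II, stood below control at every dose. Its levels were 67.4, 57.0 and 48.9 in control, 26.2, 25.9 and 14.4 with DHA at 60 ug/ml, 16.1, 15.2 and 13.1 with 120 ug/ml and 18.6, 11.7 and 15.5 with 240 ug/ml. The groups treated with DHA did not overlap control, while the 3 doses overlapped each other, with the third library at 60 ug/ml inside the range of the higher doses. The mean was 15.3 ± 3.46 at 240 ug/ml, against 57.8 ± 9.27 in control (26.4% of control), with a log2 fold change of -1.86 (SE 0.22). At 60 ug/ml the log2 fold change was already -1.38, and the step from 120 to 240 ug/ml was 0.02.

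DPP4 (ENSG00000197635.9, chr2:161992241-162074542, minus strand), the brush border dipeptidyl peptidase, had means below control in order of dose, by a smaller factor than AGT and ENPEP. Its levels were 36.2, 40.7 and 28.2 in control, 24.9, 29.5 and 17.4 with DHA at 60 ug/ml, 20.2, 18.5 and 20.7 with 120 ug/ml and 19.3, 16.4 and 14.2 with 240 ug/ml. The range at 60 ug/ml overlapped control, and the ranges at 120 and 240 ug/ml did not. The ranges of the doses overlapped each other, so the libraries do not separate the doses. The mean was 16.6 ± 2.56 at 240 ug/ml, against 35.0 ± 6.33 in control (47.5% of control). The log2 fold changes were -0.55, -0.78 and -1.03 at 60, 120 and 240 ug/ml (SE 0.18 each). Of 11 DPP4 transcripts in GENCODE, 1 that is protein-coding has no value in the table.

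MME (neprilysin, ENSG00000196549.10, chr3:155024124-155183729, plus strand), a metalloendopeptidase of the proximal tubule brush border, had its lowest mean at the lowest dose. Its levels were 6.5, 7.3 and 5.1 in control, 3.5, 2.4 and 1.0 with DHA at 60 ug/ml, 3.3, 3.5 and 4.4 with 120 ug/ml and 5.4, 3.9 and 2.9 with 240 ug/ml. Libraries at 60 and 120 ug/ml lay below every control library, while 1 library at 240 ug/ml lay within the control range. The means were 36.5%, 59.3% and 64.6% of control at 60, 120 and 240 ug/ml, and the log2 fold changes were -1.21, -0.62 and -0.54 (SE 0.27 each). The GENCODE annotation holds 18 MME transcripts, of which 13 have a value in the table, and the 5 others are protein-coding, so the MME level leaves out any reads given to those.

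ACE (ENSG00000159640.15, chr17:63477061-63498380, plus strand), which forms angiotensin II, was near the lower limit of the table in every group. Its levels were 1.2, 0.8 and 0.4 in control, 1.5, 1.2 and 0.7 with DHA at 60 ug/ml, 1.0, 0.7 and 0.5 with 120 ug/ml and 0.9, 1.6 and 1.1 with 240 ug/ml. Every dose overlapped control, and none of its 21 transcripts in the table reached 1 in any library, while 1 further protein-coding ACE transcript of GENCODE has no value there. The log2 fold change at 240 ug/ml was 0.30 (SE 0.23). ANPEP (aminopeptidase N, ENSG00000166825.13, chr15:89784889-89815401, minus strand), which removes the arginine of angiotensin III, was listed at 0 in the 3 control libraries and at no more than 0.2 in any DHA library, and no fold is given for it. Only 2 of its 9 transcripts had a value above 0 in any library.

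ATP6AP2 (ENSG00000182220.14, chrX:40579372-40606848, plus strand), the prorenin receptor, had the highest level of the 8 genes in every group. Its levels were 234.6, 222.7 and 218.1 in control, 148.8, 147.8 and 165.8 with DHA at 60 ug/ml, 141.7, 123.7 and 147.0 with 120 ug/ml and 155.6, 121.0 and 154.1 with 240 ug/ml. All 9 DHA libraries lay below the control libraries, the 120 ug/ml libraries lay below those at 60 ug/ml, and the range at 240 ug/ml overlapped both. The mean was 144 ± 19.6 at 240 ug/ml, against 225 ± 8.52 in control (63.8% of control). The log2 fold change at 240 ug/ml was -0.65 (SE 0.11), and -0.23 with equal library totals.

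AGTRAP (ENSG00000177674.15, chr1:11736084-11754802, plus strand), which binds AGTR1, differed from ATP6AP2 at the lowest dose. Its levels were 80.5, 82.7 and 71.2 in control, 89.8, 80.3 and 79.4 with DHA at 60 ug/ml, 64.4, 69.8 and 63.9 with 120 ug/ml and 63.5, 55.9 and 57.2 with 240 ug/ml. The libraries at 60 ug/ml overlapped control, and those at 120 and 240 ug/ml lay below it. The mean was 58.9 ± 4.07 at 240 ug/ml, against 78.1 ± 6.10 in control (75.3% of control). The log2 fold changes were 0.09, -0.24 and -0.40 at 60, 120 and 240 ug/ml (SE 0.083 each), but with equal library totals they were 0.29, 0.13 and 0.02, so at 120 and 240 ug/ml the sign depends on the scaling.

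Counted over the 8 genes, all 3 DHA libraries lay below all 3 control libraries for 4 genes at 60 ug/ml (AGT, ENPEP, MME and ATP6AP2), where 20.3% of all genes tested did so. At 120 ug/ml this held for 6 genes, against 27.3% of all genes tested, and at 240 ug/ml for 5 genes, against 28.7%. None of the 8 lay above control in this way, which 16.2%, 21.7% and 24.2% of all genes tested did at 60, 120 and 240 ug/ml. The genes were chosen from these contrasts, so nothing is read from these shares. With limma (Benjamini-Hochberg adjusted p under 0.05), 18.9% of all genes were called at 60 ug/ml (8.89% higher, 10.0% lower), 36.7% at 120 ug/ml (15.9% higher, 20.8% lower) and 43.1% at 240 ug/ml (19.7% higher, 23.5% lower). At 240 ug/ml limma called 3306 genes higher and 3938 lower, and 7205 higher and 1531 lower with equal library totals.

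**Figure D2:**
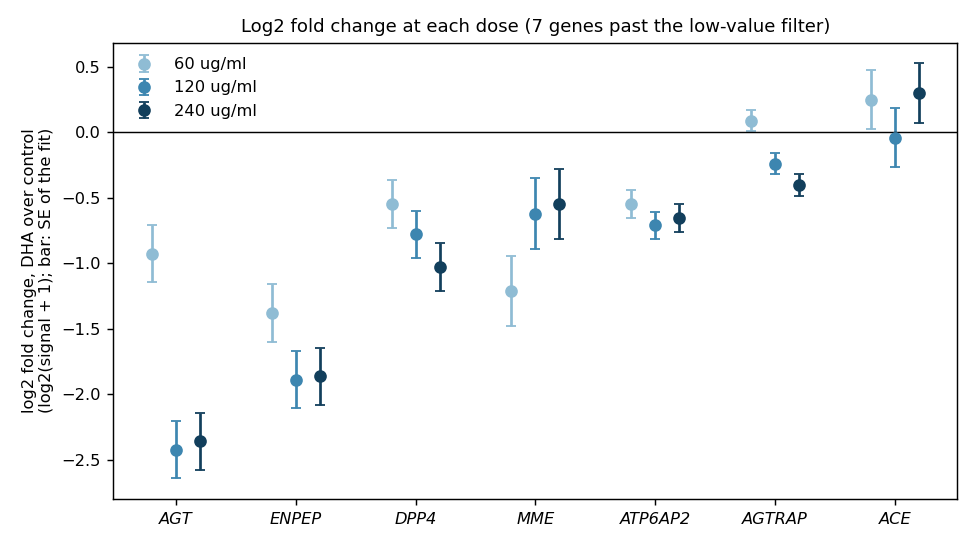
Log2 fold change against control (log2 of value + 1, vertical axis) at 60, 120 and 240 ug/ml DHA for the 7 genes that passed the low-value filter. Points are fitted differences and bars ± 1 SE. AGT and ENPEP reach -2.36 and -1.86 at 240 ug/ml, MME is lowest at 60 ug/ml, and ACE stays within 0.30 of 0.

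At 60 ug/ml, the third library had the lowest level of AGT, ENPEP, DPP4, MME, AGTRAP and ACE, and the highest of ATP6AP2. Without it, the log2 fold changes at 60 ug/ml were -0.63 for AGT, -1.11 for ENPEP, -0.34 for DPP4 and -0.89 for MME. The third control library was likewise the lowest in control for these genes, and for ATP6AP2 too. At 120 ug/ml the third library was lowest for AGT, ENPEP, AGTRAP and ACE, but highest for DPP4, MME and ATP6AP2.

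Levels can be compared between genes as far as the signal is scaled by transcript length, as it is read here. In control, the order from high to low was ATP6AP2, AGTRAP, ENPEP, DPP4, AGT, MME, ACE and ANPEP, and no neighbours in this order overlapped. At 60 ug/ml the ranges of DPP4 and ENPEP overlapped, as did those of MME and ACE. At 120 ug/ml MME stood above AGT. At 240 ug/ml the ranges of DPP4 and ENPEP overlapped, and MME at 2.9 to 5.4 again stood above AGT at 2.3 to 2.5, whereas in control AGT at 14.5 to 19.1 stood above MME at 5.1 to 7.3.

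At transcript level, the differences of AGT, ENPEP, DPP4 and AGTRAP lay mostly in 1 transcript each. AGT had a value from AGT-201 alone. The protein-coding ENPEP-201 made up 79.7% of the ENPEP level at 240 ug/ml and 82.4% in control, with a mean of 12.2 ± 1.91 at 240 ug/ml and 47.6 ± 7.67 in control. The retained-intron transcript ENPEP-202 averaged 2.27 ± 1.46 at 240 ug/ml and 6.87 ± 1.27 in control, so both kinds of ENPEP transcript stood lower. DPP4-201 made up 96.8% of the DPP4 level at 240 ug/ml and 98.6% in control. AGTRAP-201 made up 69.3% of the AGTRAP level at 240 ug/ml and 72.6% in control, and averaged 40.8 ± 2.35 at 240 ug/ml and 56.7 ± 4.17 in control.

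ATP6AP2 was spread over several protein-coding transcripts whose means stood at different shares of control. ATP6AP2-217 averaged 49.4 ± 5.05 at 240 ug/ml and 72.7 ± 14.6 in control. ATP6AP2-233 averaged 8.83 ± 7.95 at 240 ug/ml, with 1 library listed at 0, and 29.03 ± 5.49 in control. ATP6AP2-226 averaged 32.1 ± 6.09 at 240 ug/ml and 49.6 ± 11.4 in control, and the groups overlapped. ATP6AP2-219, which is annotated for nonsense-mediated decay, also overlapped control, at 14.2 ± 2.77 at 240 ug/ml and 20.3 ± 3.27 in control. In MME, MME-201 averaged 1.13 ± 0.666 at 240 ug/ml and 2.60 ± 0.819 in control, and the retained-intron transcript MME-213 made up 35.2% of the MME level at 240 ug/ml and 31.7% in control. The split of reads between transcripts of a gene is an estimate by the authors' tool and is less certain than the sum.

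**Figure D3:**
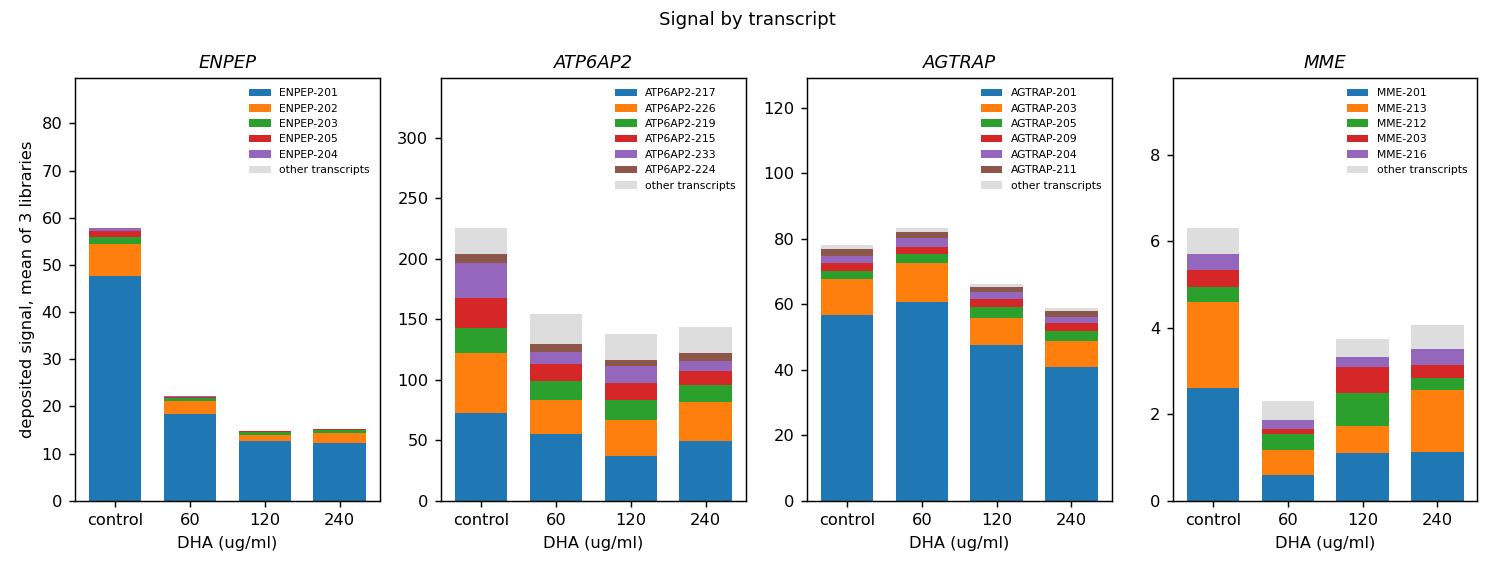
Mean signal of the transcripts of ENPEP, ATP6AP2, AGTRAP and MME (vertical axis, deposited signal, linear, stacked to the gene's level, mean of 3 libraries with no error shown) against DHA dose (ug/ml, control at the left). ENPEP-201 makes up most of ENPEP in every group, and AGTRAP-201 most of AGTRAP, while ATP6AP2 and MME are split over several transcripts.

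The genes whose pattern over the 12 libraries was most like that of AGT were BCL2, an inhibitor of apoptosis, DYSF, a membrane repair protein, and THBS3, a matrix glycoprotein, each with a Pearson r of 0.989 among 10179 protein-coding genes of mean level at least 5. BCL2 averaged 5.10 at 240 ug/ml and 12.97 in control. For ENPEP they were YPEL5 (r 0.985), CHMP1B (0.983) and TMEM128 (0.983). For DPP4 they were the lysosomal peptidase TPP1 (0.965), GSTZ1 (0.960) and BCAS3 (0.960). ATP6AP2 was most like OSTC, a subunit of the oligosaccharyltransferase (0.988), DERA (0.987) and GET1 (0.987), and AGTRAP was most like AGPAT2 (0.977), ISOC2 (0.975) and GPRC5B (0.974). MME was most like MARCHF5 (0.907), STAC (0.896) and BMAL1 (0.855), and ACE was most like ADO (0.932), ITPRIPL2 (0.860) and KCTD13 (0.824). An r of at least 0.9 was reached by 776 genes for AGT, 622 for ENPEP, 560 for ATP6AP2, 325 for DPP4, 265 for AGTRAP and 1 each for MME and ACE. These are descriptions, since all genes share the 12 libraries and 4 doses.

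The rest of the renin-angiotensin pathway was largely at or near 0. Of 17 further genes, 10 did not pass the low-value filter. The angiotensin-(1-7) receptor MAS1 was at no more than 0.1 in any library, and the angiotensin II receptors AGTR1 and AGTR2 were listed at 0 in all 12. Thus AGTRAP was measured in libraries in which the receptor it binds was listed at 0. Of the 7 genes tested, limma called 2 higher and 1 lower at 240 ug/ml, where 43.1% of all genes were called, with a median log2 fold change of 0.17, beside -0.03 over all genes. With equal library totals 5 were higher and 1 lower, with a median of 0.60 beside 0.33 over all genes. The angiotensin-cutting metallopeptidases thimet oligopeptidase (THOP1) and neurolysin (NLN) rose: THOP1 averaged 126 ± 2.51 at 240 ug/ml and 75.4 ± 7.34 in control (log2 fold change 0.74, SE 0.097, limma adjusted p = 0.000149), and NLN averaged 26.1 ± 0.964 at 240 ug/ml and 18.7 ± 0.866 in control (0.46, SE 0.11, limma adjusted p = 0.00476). PRCP, a lysosomal carboxypeptidase that takes the last residue from angiotensin II, fell to 25.5 ± 4.50 at 240 ug/ml, against 50.4 ± 3.08 in control (log2 fold change -0.97, SE 0.12, limma adjusted p = 8.46e-05).

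Of 23 relatives of the 5 peptidases, 12 were tested, and 3 rose and 3 fell at 240 ug/ml, a share near the 43.1% of all genes called, with a median log2 fold change of 0.06. With equal library totals 9 were higher and 1 lower, with a median of 0.47 beside 0.33 over all genes. DPP9 and DPP8, cytosolic enzymes of the DPP4 family, rose by log2 fold changes of 0.83 and 0.68 (limma adjusted p = 3.95e-05 and 0.000133), whereas DPP4 itself stood at -1.03. ECE1, the endothelin-converting relative of MME, averaged 87.2 ± 8.19 at 240 ug/ml and 51.0 ± 0.902 in control (0.76, limma adjusted p = 9.64e-05). The aminopeptidases AOPEP, LTA4H and ERAP1, relatives of ENPEP and ANPEP, had log2 fold changes of -0.85, -0.30 and -0.25 (limma adjusted p = 0.000547, 0.0185 and 0.0409). Equal library totals ended the calls of LTA4H and ERAP1 and turned their signs, to 0.13 and 0.17. The ERAP1 call was also lost with no filter (adjusted p = 0.0663), without the second or the third library at 240 ug/ml (0.142 and 0.0644) and without the first, the second or the third control library (0.119, 0.0797 and 0.0664). The LTA4H call was also lost without the second or the third library at 240 ug/ml (0.0658 and 0.0516) and without the first or the second control library (0.0828 and 0.0669).

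**Figure D4:**
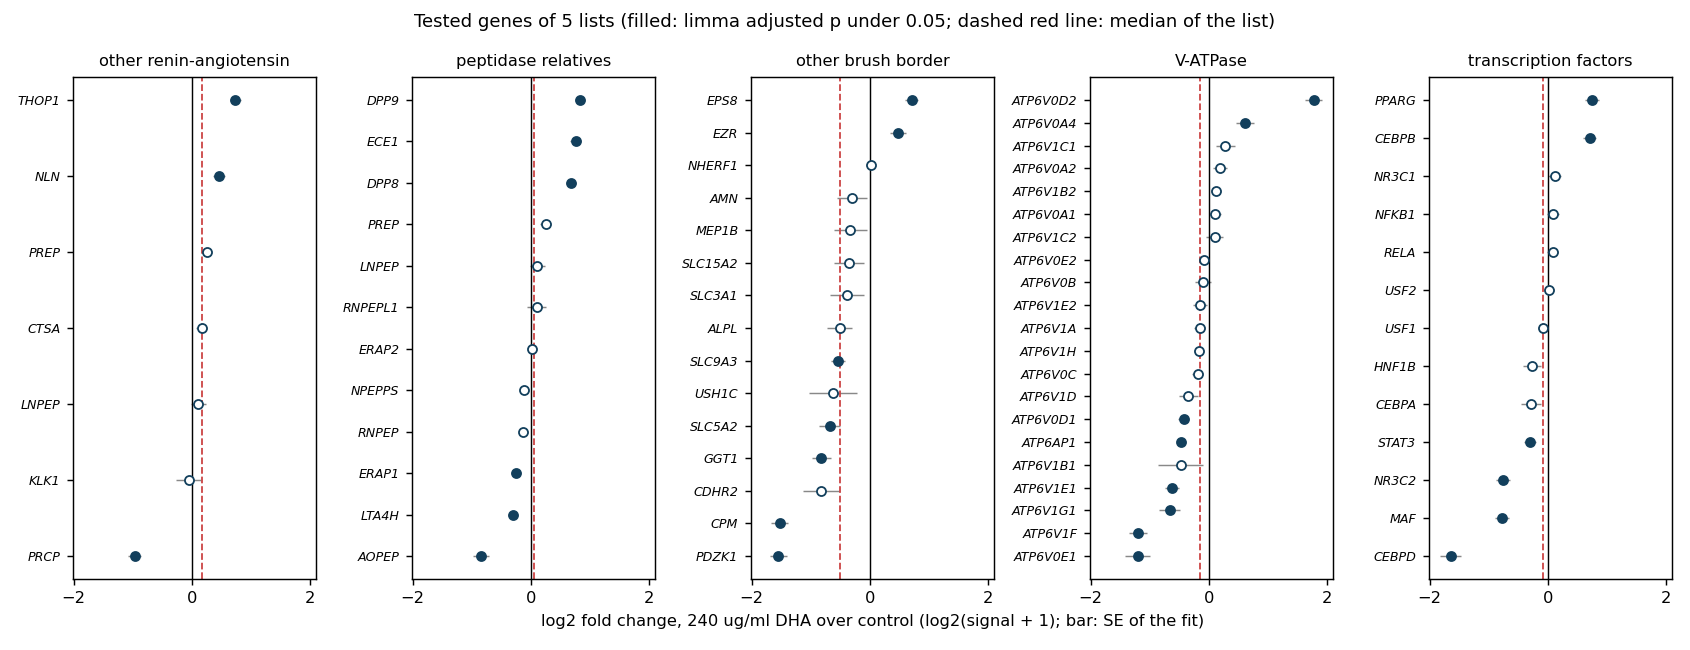
Log2 fold change at 240 ug/ml DHA over control (horizontal axis, log2 of signal + 1, bars of ± 1 SE) of the tested genes in 5 lists, one panel per list. Filled points were called by limma over all genes tested, and open points were not. The dashed line is the median of the list, which lies farthest below 0 in the brush border list, at -0.51. Several genes of that list were at low levels.

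Among 29 brush border genes beside the peptidases, 15 were tested, and 2 rose and 5 fell at 240 ug/ml, a share near the 43.1% of all genes called, with a median log2 fold change of -0.51. Several of the tested genes were at low levels. The median is the value of ALPL, which averaged 0.7 ± 0.1 at 240 ug/ml and 1.43 ± 0.32 in control and was not called (limma adjusted p = 0.0729). With equal library totals 3 were higher and 3 lower, with a median of -0.23 beside 0.33 over all genes. The calls of the transporters SLC9A3 and SLC5A2 were then lost. Their control means were 3.23 and 3.87, and neither was tested with a filter of at least 5 in at least 3 libraries. PDZK1, the scaffold of apical transporters, averaged 47.7 ± 5.89 at 240 ug/ml and 141 ± 13.9 in control (log2 fold change -1.55, SE 0.15, limma adjusted p = 2.44e-05). Carboxypeptidase M (CPM), a membrane peptidase, averaged 28.03 ± 2.01 at 240 ug/ml and 82.8 ± 11.3 in control (-1.52, SE 0.15, limma adjusted p = 2.55e-05), and the gamma-glutamyltransferase GGT1 fell by 0.82 on the log2 scale (limma adjusted p = 0.00183). The actin regulator EPS8 and ezrin (EZR), which links the actin of microvilli to the membrane, rose by 0.71 and 0.48 (limma adjusted p = 0.00043 and 0.013). The call of EZR was lost without the third library at 240 ug/ml (adjusted p = 0.0552). The microvillar protein villin (VIL1), DPEP1 and the endocytic receptors LRP2 and CUBN were below 1 in every library.

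ATP6AP2 was also set beside 23 V-ATPase genes, of which 21 were tested. At 240 ug/ml 2 rose and 6 fell, where 43.1% of all genes were called, with a median log2 fold change of -0.16, against -0.65 for ATP6AP2. ATP6V1F averaged 174 ± 36.6 at 240 ug/ml and 396 ± 15.9 in control (-1.20, limma adjusted p = 0.000103), ATP6V0E1 averaged 61.7 ± 17.3 at 240 ug/ml and 139 ± 11.3 in control (-1.20, limma adjusted p = 0.00087) and ATP6V1G1 had a log2 fold change of -0.66 (limma adjusted p = 0.0112). With equal library totals the calls of ATP6V1G1, ATP6V1E1, ATP6V0D1 and ATP6AP1 were lost, and 9 of the 21 genes were higher and 2 lower, with a median of 0.26 beside 0.33 over all genes. The 2 that rose were ATP6V0D2 and ATP6V0A4, subunits of restricted tissue use, both at low levels. They averaged 4.80 ± 0.781 and 1.40 ± 0.200 at 240 ug/ml, against 0.700 ± 0.265 and 0.567 ± 0.153 in control. Both were below 1 in every control library and passed the low-value filter only through DHA libraries, so no p-value is given for them. With a filter of at least 5 in at least 3 libraries neither was tested.

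Of 15 transcription factors known to act on AGT or on proximal tubule genes, 13 were tested, and 2 rose and 4 fell at 240 ug/ml, a share near the 43.1% of all genes called, with a median log2 fold change of -0.09. CEBPD, a C/EBP factor of the acute phase response, averaged 15.8 ± 1.82 at 240 ug/ml and 52.0 ± 8.92 in control (-1.65, limma adjusted p = 4.63e-05), whereas its relative CEBPB averaged 53.8 ± 7.70 at 240 ug/ml and 32.3 ± 1.53 in control (0.71, limma adjusted p = 0.000373). MAF and the mineralocorticoid receptor NR3C2 fell by 0.78 and 0.76 on the log2 scale (limma adjusted p = 0.000334 and 0.000478), and PPARG rose by 0.75 (limma adjusted p = 0.000343). NR3C2 was at low levels, with means of 1.93 ± 0.31 at 240 ug/ml and 3.97 ± 0.32 in control. It was not tested with a filter of at least 5 in at least 3 libraries. On equal library totals, 7 were higher and 3 lower, with a median of 0.33, equal to that over all genes. HNF4A was below 1 in every library. Any part of these factors in the levels of the 8 genes was not tested.

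The labelled cell type was checked against 10 tubule markers. PAX8, CDH6, KRT8 and KRT18 were detected, and 6 were below 1 in every library (LRP2, CUBN, SLC34A1, AQP1, HNF4A and PAX2), LRP2 being at 0 in all 12, so defining genes of the mature proximal tubule were absent or nearly so. The summed level of the 10 was 739.7 to 797.7 at 240 ug/ml and 764.0 to 824.0 in control, but of the 4 tested at 240 ug/ml limma called 0 higher and 2 lower. KRT8 was at 15.1, 9.0 and 10.4 at 240 ug/ml and at 30.6, 27.9 and 16.9 in control (log2 fold change -1.05, limma adjusted p = 0.00553), a call lost with protein-coding transcripts alone (-0.39, adjusted p = 0.211). CDH6 averaged 331 ± 14.1 at 240 ug/ml and 396 ± 28.3 in control (-0.26, limma adjusted p = 0.0224), but was at 0.17 with equal library totals and 0.09 after quantile normalization, and its call was also lost without the third library at 240 ug/ml (adjusted p = 0.0792) or the first or the second control library (0.0964 and 0.0692). PAX8 averaged 274 ± 32.0 at 240 ug/ml and 230.5 ± 7.40 in control and was not called (limma adjusted p = 0.109). Of 15 markers of other cell types, 11 were below 1 in every library, and PTPRC, KDR, NPHS1, UMOD and AQP2 were at 0. Their summed level was 337.8 to 464.5 in control, 193.6 to 332.2 with DHA at 60 ug/ml, 145.4 to 193.0 with 120 ug/ml and 105.7 to 160.7 with 240 ug/ml. It was carried by the matrix proteoglycans lumican (LUM) and decorin (DCN) and by CD68, with LUM at 34.2 ± 10.7 at 240 ug/ml and 226 ± 31.0 in control. LUM stood below control at every dose, as AGT and ENPEP did. DCN overlapped control at 60 ug/ml, and CD68 at 60 and 120 ug/ml. The part of these markers in the levels of the 8 genes was not tested.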

How the data were processed

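Polyadenylated RNA from 12 HK-2 libraries (4 groups of 3) was read on a DNBSEQ instrument from libraries marked with dUTP, per the labels' protocols. The authors deposited a normalized signal for each of 267165 Ensembl transcripts, to 1 decimal, and the submitters' processing notes name GRCh38.p14. No source used here names the aligner, the counting tool or the annotation release. Library totals ran from 791808 to 1228979, and depth is unknown, so no counting interval or detection limit is given. Identifiers were matched without version to GENCODE release 29 (202305 transcripts, 75.7%, in 57527 genes, 93.8% to 94.7% of each total) and summed per gene. No pair of libraries held identical values.

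The 16789 genes that reached 1 in 3 or more libraries were fitted with limma-trend (limma 3.58.1, R 4.3.3) on log2(value + 1), 1 mean per group, no covariates. Adjusted p-values are two-sided Benjamini-Hochberg values over all genes tested, called at 0.05. The script was tested on simulated data. The members and lists were chosen with earlier results of these data known, so no test is given for the members or for a list. Named list genes are those with up to 3 highest and 3 lowest called fold changes at 240 ug/ml, with AGTR1, AGTR2 and MAS1, and some list genes are not reported here. CTSA and other uncalled genes are counted only, apart from ALPL. ALPL, DPEP1, VIL1 and the marker genes were named after their values were seen. Alternatives were other pseudocounts, filters and scalings, GC and length trends, a replicate block and leaving out each library.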

Additional observations from a re-analysis of the deposited data

How the results depend on the processing

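The log2 fold changes of AGT, ENPEP, DPP4, MME and ATP6AP2 were below 0 at every dose under all alternatives tried. Other filters, and leaving out a library of another dose, could not move them. The libraries of DPP4 at 60 ug/ml and of MME at 240 ug/ml overlapped control. With equal library totals the log2 fold changes at 240 ug/ml were -1.99 for AGT, -1.45 for ENPEP, -0.19 for MME, -0.61 for DPP4, -0.23 for ATP6AP2 and 0.02 for AGTRAP, whose sign turned there and at 120 ug/ml (0.13), as did that of ACE at 120 ug/ml (0.12). The same scaling called 2782 genes higher and 657 lower at 60 ug/ml, where 1492 and 1685 are reported. For 120 ug/ml it called 6090 and 1378 in place of 2670 and 3485, and for 240 ug/ml 7205 and 1531 in place of 3306 and 3938. It called 6 renin-angiotensin genes (3 as reported), 10 peptidase relatives (6) and 10 transcription factors (6) at 240 ug/ml. The cause was not tested. AGT at 240 ug/ml was -2.73 with a pseudocount of 0.1 and -1.53 with 5, ACE was 0.60 with 0.1, and ATP6AP2 was -0.46 after quantile normalization. With GC and length trends subtracted, ENPEP was -2.16 and AGTRAP -0.23, with and without the replicate block. Leaving out 1 library at a time gave 923 to 1561 genes higher and 954 to 1883 lower at 60 ug/ml. The counts there were 930 and 1016 without the first library at 60 ug/ml, 923 and 954 without the first control library, and 1054 and 1110 lower without the second and the third control library. At 240 ug/ml these ranges were 2688 to 3420 and 3128 to 4023. AGT then ran from -2.44 to -2.25 and ENPEP from -2.01 to -1.70, while ACE at 120 ug/ml ran from -0.21 to 0.12, turning to 0.06 without the third library of that dose and to 0.12 without the first control library. Control and DHA libraries of the same number correlated at -0.02 to 0.16 in their deviations from group means. Those of different numbers correlated at -0.11 to 0.07, and the same number was not every library's best match. Libraries of different doses were not compared with each other, so whether the numbers pair libraries is not settled. The replicate block gave 3626 genes higher and 4275 lower at 240 ug/ml, more than the 3306 and 3938 reported. It could not change a fold change, because each library number occurs once in every group. The unknown depth leaves the counting error of low levels, such as those of ACE, ANPEP and MME, and of AGT at 120 and 240 ug/ml, without a value.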
